A study of Mus musculus with 12 samples.

Results

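The replication-dependent histone cluster genes were taken as the protein-coding genes of the GENCODE vM21 annotation of the mouse genome (GRCm38) whose names begin with Hist1h, Hist2h, Hist3h or Hist4h. This gave 67 genes of 21938. CUT&RUN, in which an antibody-tethered nuclease releases the DNA around a bound protein, had been performed on Min6, an insulinoma cell line of the mouse that serves as a model of β cells. The cultures were kept for 48 h with 20 µM SP600125, which blocks the kinases that phosphorylate cJun (JNKi), or with DMSO as the vehicle, and 550000 cells entered each reaction with an antibody to the AP-1 subunit cJun, to the promoter mark H3K4me3 or with control IgG. The 12 samples fell into 6 groups of 2 biological replicates, and the data analysed here were 4 peak lists (cJun and H3K4me3, each in DMSO and JNKi), each holding the peaks called in both replicates of its group. The H3K4me3 lists held 19372 peaks in DMSO and 19032 in JNKi, the cJun lists 4960 and 1632. Read depth behind them was not analysed here, so a difference in list length and a difference in depth cannot be told apart. All groups were the same cell line, and the DMSO groups differed from the JNKi groups in the inhibitor only, as far as the labels state.

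Replication-dependent histone genes encode the bulk H1, H2A, H2B, H3 and H4 proteins that package new DNA in S phase. They are short, mostly intronless and packed into clusters, and many H2A and H2B genes lie head to head and share the sequence between their starts. Their transcription depends on the coactivator NPAT, and their messages end in a stem-loop bound by SLBP in place of a poly(A) tail. H3K4me3 marks the starts of active genes, and cJun is best known for binding AP-1 sites.

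The 67 genes formed 4 clusters. Hist1 on chromosome 13 held 54 genes, which fell into 4 blocks when a gap of over 100 kb between neighbouring starts opened a new block. Hist2 on chromosome 3 held 10 genes, Hist3 on chromosome 11 held 2 and Hist4 on chromosome 6 held 1. By protein there were 6 H1, 18 H2A, 18 H2B, 12 H3 and 13 H4 genes.

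The message stem-loop was read from the reference to see what the name-based list shared. A perfect stem of 6 bases around a loop of 4 was found at 63 of the 67 genes, between 22 and 121 bases after the stop codon. Only 6 versions occurred, printed here as DNA with the stem in capitals:
stem-loop of 41 genes, among them Hist1h1b, Hist1h2ak and Hist3h2a: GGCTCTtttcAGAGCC
stem-loop of 9 genes, among them Hist1h1t and Hist1h2bb: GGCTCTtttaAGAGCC
stem-loop of Hist1h2bn and Hist2h2ac: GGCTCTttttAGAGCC
stem-loop of 8 H4 genes, among them Hist1h4k and Hist4h4: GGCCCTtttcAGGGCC
stem-loop of Hist1h4i and Hist2h4: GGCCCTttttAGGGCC
stem-loop of Hist1h4b and Hist1h4j: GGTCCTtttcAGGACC
The last 3 versions were found at H4 genes only, and all 12 H4 genes with a match carried one of them, while no gene of another class did. Hist1h2bn had 2 matches, of the first and the third version. Hist1h2an, Hist1h3g, Hist1h4a and Hist2h2be had no match to this rule, which allows no mismatch in the stem.

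H3K4me3 was found at most of these genes in both treatments. In DMSO, 61 of 67 genes (91.0%) had an H3K4me3 peak within 3 kb of an annotated transcription start, against 60.1% of all protein-coding genes. In JNKi all 67 had one, against 59.5%. The peak covered the start itself at 46 genes (68.7%) in DMSO, against 56.9% of all genes, and at 51 (76.1%) in JNKi, against 56.4%. The same 46 starts were covered in both lists, 5 were covered in JNKi only, none in DMSO only and 16 in neither. Of all 21938 protein-coding genes, 12294 were covered in both, 86 in JNKi only and 181 in DMSO only. By the replicates' own intervals of these peaks, 44 and 42 starts were covered in DMSO and 51 and 50 in JNKi. The JNKi counts lay above the DMSO counts, but 2 against 2 values cannot reach the 0.05 threshold, and the two-sided exact permutation p of 0.333 is the smallest they can give.

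**Figure D1:**
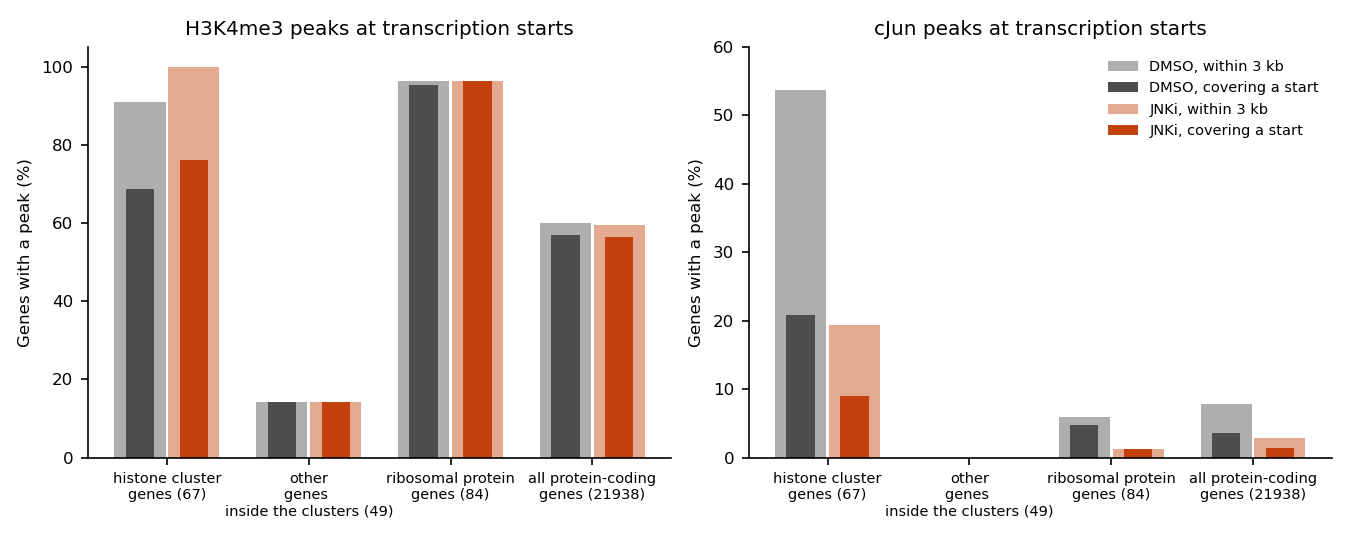
Share of genes (%) with an H3K4me3 peak (left) or a cJun peak (right) in DMSO (grey) and JNKi (orange) for the histone cluster genes and 3 comparison sets; pale bars count peaks within 3 kb of a start and dark bars peaks that cover a start. cJun peaks lay within 3 kb of 53.7% of histone genes in DMSO and 19.4% in JNKi. They lay near none of the 49 other genes wholly inside the clusters, 36 of which are Vmn1r receptor genes.

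H3K4me3 was also counted at the other genes inside the clusters. Of 49 other protein-coding genes that lie wholly within a cluster, all in Hist1, 7 (14.3%) had an H3K4me3 peak within 3 kb in either list. None of the 36 Vmn1r pheromone receptor genes among them had a peak. Of the remaining 13 genes 7 had one, beside 60.1% of all genes in DMSO and 59.5% in JNKi. The 7 were Zfp184, Pom121l2, Prss16, Zfp322a, Abt1, Btn1a1 and the iron regulator Hfe. Genes that reach past the edge of a cluster, such as Trim17 beside Hist3h2a, are not among the 49. Ribosomal protein genes, another set of highly transcribed genes, had an H3K4me3 peak in 81 of 84 cases in each list, and none of 39 Hox genes had one. The markers of the cell line were as labelled for 5 of 6 β-cell genes (Ins2, Pdx1, Nkx6-1, Mafa and Neurod1), whose starts lay under H3K4me3 in both lists, while Ins1 had no peak. Of 6 markers of other cell types, the start of Gcg was covered in both lists, Col1a1 had a peak within 3 kb, and Sst, Cpa1, Krt19 and Ptprc had none.

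By cluster, the H3K4me3 counts within 3 kb in DMSO were 48 of 54 in Hist1, 10 of 10 in Hist2, 2 of 2 in Hist3 and 1 of 1 in Hist4. By protein they were 6 of 6 for the linker histone H1, 16 of 18 for H2A, 16 of 18 for H2B, 12 of 12 for H3 and 11 of 13 for H4. The 6 genes without a DMSO peak all lay at the end of the first Hist1 block, so that 12 of its 18 genes had a peak there, against 5 of 5, 29 of 29 and 2 of 2 in the other blocks.

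Those 6 genes were Hist1h2bq, Hist1h2ao, Hist1h4m, Hist1h4n, Hist1h2ap and Hist1h2br, which form an inverted repeat in which each gene of one arm has a counterpart in the other. Of the windows of 150 bases within 1 kb of their starts, 100% were found more than once in the genome for the H2A and H2B genes, 76.3% for Hist1h4m and 69.9% for Hist1h4n. In JNKi the only peaks near them were 294 and 236 bp wide and lay 475 to 2063 bp from the starts, so that no start was covered in either list. Among all genes without a DMSO H3K4me3 peak, 0.949% had a JNKi peak within 3 kb. A second inverted repeat on chromosome 3 held Hist2h3c2, Hist2h2aa2, Hist2h2aa1 and Hist2h3c1, with 65.6%, 44.1%, 41.1% and 66.6% of windows repeated. Their nearest peaks were of 339 to 1021 bp in DMSO and 341 to 1245 bp in JNKi and ended 90 to 356 bp from the starts. Reads that match several places cannot be assigned to a copy, and the authors removed alignments of low quality, so that a missing peak and a missing mark cannot be told apart there. Outside these 10 genes, 57 of 57 had an H3K4me3 peak within 3 kb in both lists, and 46 and 51 starts were covered.

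The testis genes were set apart as well. Hist1h2ba and Hist1h2aa, a head-to-head pair of sperm-lineage H2B and H2A genes that make up the fourth Hist1 block, had their nearest H3K4me3 peak 2655 and 2961 bp away in both lists, and it was 1 and the same peak of 1201 bp in DMSO and 1199 bp in JNKi. Hist1h1t, the testis linker histone, had its nearest peak 1820 bp away in DMSO and 1790 bp away in JNKi, and that peak ended 66 and 21 bp from the start of Hist1h4c. All 3 thus counted within 3 kb through a neighbouring peak, and none of their own starts was covered.

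At the genes that had a peak, H3K4me3 ranked below that of genes in general. Peaks were ranked within each list by −log10 p, where the value of a merged peak is the lower of its replicates' values, and expressed as a percentile with 100 at the top. The median percentile at histone genes was 39.3 in DMSO and 39.9 in JNKi, against 69.9 in both lists for all genes with a peak. Ribosomal protein genes had a median of 89.7 in DMSO. The median −log10 p at histone genes was 57.8 in the first replicate column and 43.7 in the second in DMSO, against 267 and 222 for all genes, and 79.6 and 53.8 in JNKi, against 315 and 256. The replicate columns carry no replicate number, and values of different lists cannot be compared directly. Median width was 2193 bp in DMSO, below the 2570 bp of all genes, and 3131 bp in JNKi, above their 2638 bp. With each distinct peak counted once it was 1393.5 bp in DMSO, against 1839 bp for all peaks of the list, and 2409 bp in JNKi, against 1907 bp.

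Within the middle ranks of the histone genes, the peaks over their starts had a larger median width than those over other genes. Among genes whose start was covered by a DMSO peak of percentile 30.4 to 46.1, the middle range of the histone genes, the median width was 1510 bp over 1125 other genes and 2881 bp over the 24 histone genes. In JNKi, over percentiles 32.4 to 47.7, it was 1554 bp over 1170 other genes and 3352 bp over 25 histone genes. These medians count a shared peak once for each gene. With each distinct peak that covered a single protein-coding start counted once, a choice made after seeing the data, the medians in these ranges were 2033.5 bp over 8 peaks at histone genes and 1501 bp over 1062 others in DMSO, and 1992 bp over 5 and 1550 bp over 1119 in JNKi. Over all ranks the order was the other way for such peaks, at 1706.5 and 2436 bp in DMSO and 2156.5 and 2483.5 bp in JNKi. Peaks over exactly 2 starts had medians of 2881 bp at histone genes and 3293 bp at others in DMSO, and 3352 and 3349.5 bp in JNKi. The range was set by the histone genes themselves, so these values are a description. Since the genes are short, 33 of the 46 covered in DMSO (71.7%) and 38 of the 51 covered in JNKi (74.5%) lay under the peak from end to end, against 2.15% and 2.19% of all genes with a covered start.

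The peak of highest rank over a start belonged to Hist3h2a, an H2A gene of the Hist3 cluster, at chr11:58953249-58957518 in DMSO. The peak also covered the start of the neighbouring gene Trim17, as did the JNKi peak. It was 4270 bp wide and ranked 4209 of 19372, with −log10 p of 264 and 336 in the replicates. In JNKi the peak was 4469 bp wide and ranked 2854 of 19032, with 369 and 358. Its neighbour Hist3h2ba, an H2B gene, lay under a peak of 2345 bp at rank 10854 in DMSO and of 2538 bp at rank 9876 in JNKi. Hist4h4, the only Hist4 gene, lay under 2193 bp at rank 9905 and 2321 bp at rank 10263. A higher-ranked peak within 3 kb of Hist4h4, of rank 5034 in DMSO and 5540 in JNKi, covered the start of the neighbouring replication-independent gene H2afj. The remaining high-ranked peaks were one of 2753 bp near Hist2h3c2 and Hist2h2aa2 at rank 7697 in DMSO, which covered no histone start, and the one over the linker histone gene Hist1h1b at rank 6843 in JNKi.

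The lowest-ranked peaks, ranked by their lower replicate value, are given with the values of both replicates. In DMSO, the peak at Hist1h3e, an H3 gene, had −log10 p of 16.5 and 3.50 and ranked 19234. In JNKi the values there were 30.2 and 31.3 and the rank was 12714. The DMSO peak by Hist1h2bm, an H2B gene, was 326 bp wide with 10.3 and 5.88, and the one by Hist1h1t and Hist1h4c was 755 bp wide with 8.46 and 6.71. In JNKi the lowest were at Hist1h2bm, at rank 18630 with 33.4 and 4.17, a peak of 215 bp by Hist2h3c2 at rank 18021 with 5.27 and 9.34, and the peak over Hist1h2bl, Hist1h2ai and Hist1h3h, at rank 15708 with 62.6 and 10.4.

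Neighbouring genes shared peaks. Within 3 kb of a histone start lay 56 distinct H3K4me3 peaks in DMSO and 49 in JNKi. Of the 46 starts covered in DMSO, 21 lay under a peak that also covered another histone start, and of the 51 in JNKi, 32 did. When any protein-coding neighbour was counted, the numbers were 22 of 46 (47.8%), against 19.7% of all covered genes, and 33 of 51 (64.7%), against 20.0%. The widest peak, chr13:23529903-23538072 in DMSO, spanned 8170 bp and covered Hist1h4h, Hist1h2af and Hist1h3g, with −log10 p of 73.0 and 122. In JNKi it spanned 8424 bp, with 152 and 96.6. The nearest peak was 5 kb or wider at these 3 genes in DMSO (4.92% of 61, against 4.97% of all genes with a peak) and at 4 in JNKi (5.97% of 67, against 5.14%), where Hist1h4d was added. Peaks of this width were thus about as common at histone genes as elsewhere. The other wide peaks were those of Hist3h2a and Hist1h4k in DMSO, the latter of 3992 bp, and in JNKi those of Hist1h4d, of 6086 bp, and of the pair Hist1h2ac and Hist1h2bc, of 4741 bp. The peak of 6086 bp also held the start codon of Hist1h2be, whose annotated start under H3K4me3 lies far off beside Hist1h1e.

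Among the head-to-head pairs, 13 in all, 12 joined an H2A to an H2B gene, and their starts lay 176 to 660 bp apart with a median of 268 bp. A single H3K4me3 peak lay over both starts of 7 pairs in DMSO and 10 in JNKi. The 3 pairs with no covered start in either list were Hist1h2bq with Hist1h2ao and Hist1h2ap with Hist1h2br of the inverted repeat, and the testis pair. The peak within 3 kb of most starts was chr13:23571069-23574254 in DMSO, which covered Hist1h2ae, Hist1h2bg and Hist1h2bf and lay near 5 genes. Its JNKi counterpart, chr13:23570978-23574579, also covered Hist1h2ad. The peak over Hist2h2ab, Hist2h2ac and Hist2h2be, 3 neighbours in Hist2, covered these starts in both lists.

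H3K4me3 peak widths were compared between JNKi and DMSO. Over the 61 genes with a peak in both lists, the JNKi peak was wider at 56 and narrower at 5, and the median ratio of widths was 1.15, against 1.01 for all 12979 genes with a peak in both lists, of which 54.9% were wider. The lists also give the interval of each replicate's own peak, so that the difference could be set against the replicate spread. The median width at the 61 genes was 2079 and 1730 bp in the DMSO replicates and 3146 and 2746 bp in the JNKi replicates. Over all genes the same medians were 2467 and 2510 bp in DMSO and 2595 and 2468 bp in JNKi. At 39 of the 61 histone genes (63.9%) both JNKi widths lay above both DMSO widths, against 20.6% of all genes. The reverse, both JNKi widths below both DMSO widths, was seen at none of the 61, against 15.2% of all genes. These counts took the nearest peak in each list, which at Hist1h1d, a linker histone gene, gave different peaks that do not overlap. Over genes whose DMSO and JNKi peaks overlapped, both JNKi widths lay above at 38 of 60 histone genes, against 20.4% of all genes, and below at 0 of 60, against 15.04%.

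The log2 widths of the replicates were then compared with limma over 11457 distinct overlapping pairs of peaks, with Benjamini-Hochberg adjustment and a threshold of 0.05. Of the 42 pairs at histone genes 9 were wider in JNKi, against 0.663% of all pairs, and 0 were narrower, against 0.340%. At an unadjusted p under 0.05, 17 were wider and 0 narrower, against 522 and 399 of all 11457 pairs. All 9 lay where a JNKi peak overlapped 2 or more DMSO peaks and rested on 6 distinct JNKi peaks, so each ratio sets 1 of several DMSO peaks against the joined JNKi peak. Among the 9, the largest differences were at Hist1h2ai with Hist1h2bl (log2 ratio 3.24, SE 0.07, adjusted p = 0.00362), Hist1h2bm (2.65, SE 0.14, adjusted p = 0.00972) and Hist1h4i (1.90, SE 0.07, adjusted p = 0.00457). The other pairs called were at Hist2h2bb, Hist1h2ag with Hist1h2bj, Hist1h4d, Hist1h3h, Hist2h3b and Hist1h2ac with Hist1h2bc. Leaving out 1 replicate column gave 0 to 2 calls in place of 9. The count fell to 0 without the first DMSO column, without the first JNKi column or without the second JNKi column, and to 2 without the second DMSO column. Over all 11457 pairs the same fits gave 0, 0, 0 and 6 wider pairs in place of 76.

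**Figure D2:**
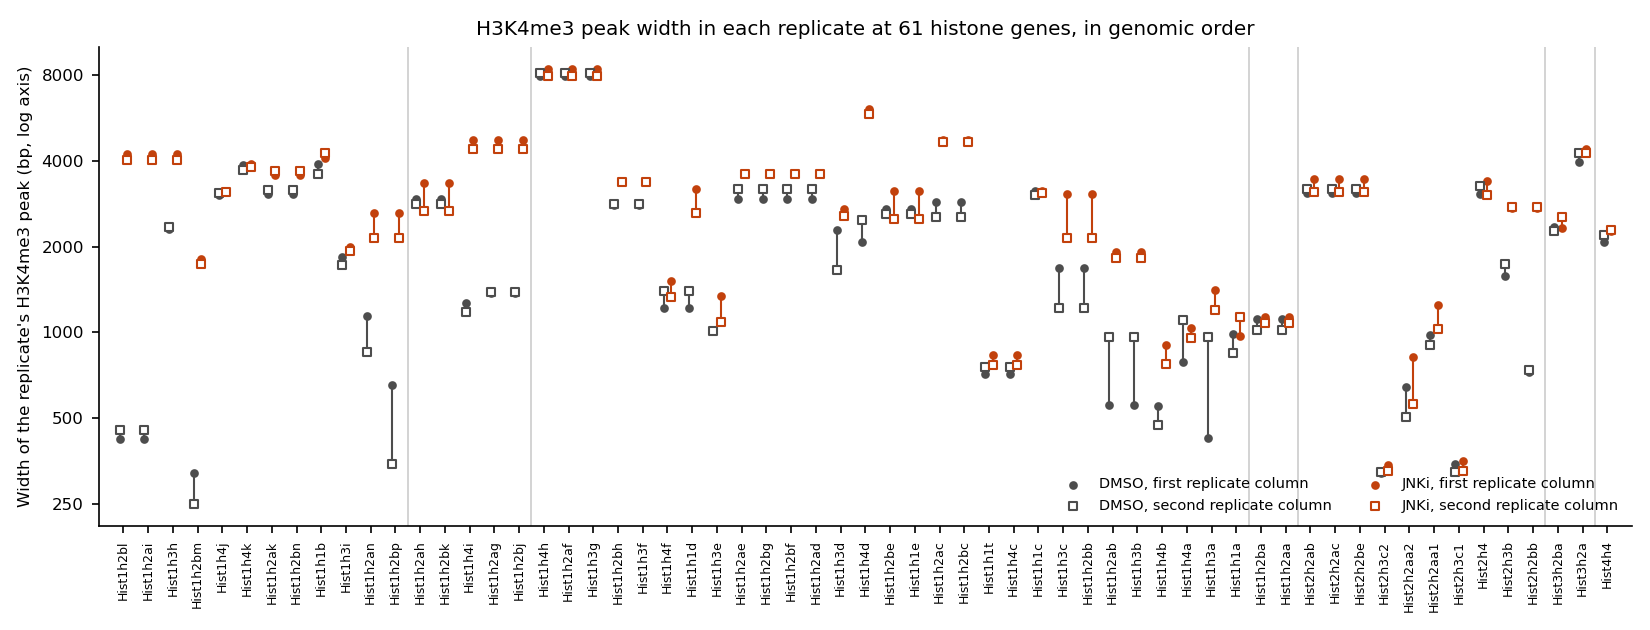
Width (bp, log axis) of each replicate's own H3K4me3 peak at the 61 histone genes with a peak in both lists, in genomic order within Hist1, Hist2, Hist3 and Hist4; circles are the first and squares the second replicate column, lines join the replicates of a treatment and grey lines separate blocks. JNKi lies above DMSO without overlap at 39 genes, at one of which, Hist1h1d, the peaks compared lie apart, and the largest gaps are at Hist1h2bl, Hist1h2ai and Hist1h2bm.

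The largest differences came from DMSO peaks that were joined in JNKi. Of the 49 JNKi peaks near histone genes, 8 (16.3%) overlapped 2 or more DMSO peaks, against 1.32% of all JNKi peaks, and the gaps between the DMSO peaks were 185 to 600 bp. The reverse, a DMSO peak over 2 or more JNKi peaks, was seen for 1 of 56, against 0.563% of all. Over Hist1h2bl, Hist1h2ai and Hist1h3h, an H2B, an H2A and an H3 gene, DMSO peaks of 831, 452 and 2337 bp stood against a single JNKi peak of 4239 bp at chr13:21714971-21719209, where the JNKi replicates' own peaks were 4239 and 4013 bp wide. Over Hist1h4i, Hist1h2ag and Hist1h2bj, DMSO peaks of 1265, 623 and 1386 bp stood against a JNKi peak of 4725 bp at chr13:22039855-22044579, with replicates of 4725 and 4407 bp. Hist1h2bm, Hist1h2an with Hist1h2bp, Hist1h2bh with Hist1h3f, Hist1h4d, Hist1h2ac with Hist1h2bc and Hist2h3b with Hist2h2bb were the other sites. The 5 starts covered in JNKi only were Hist1h2bm, Hist1h2ag, Hist1h2ad, Hist1h2bb and Hist1h3b.

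**Figure D3:**
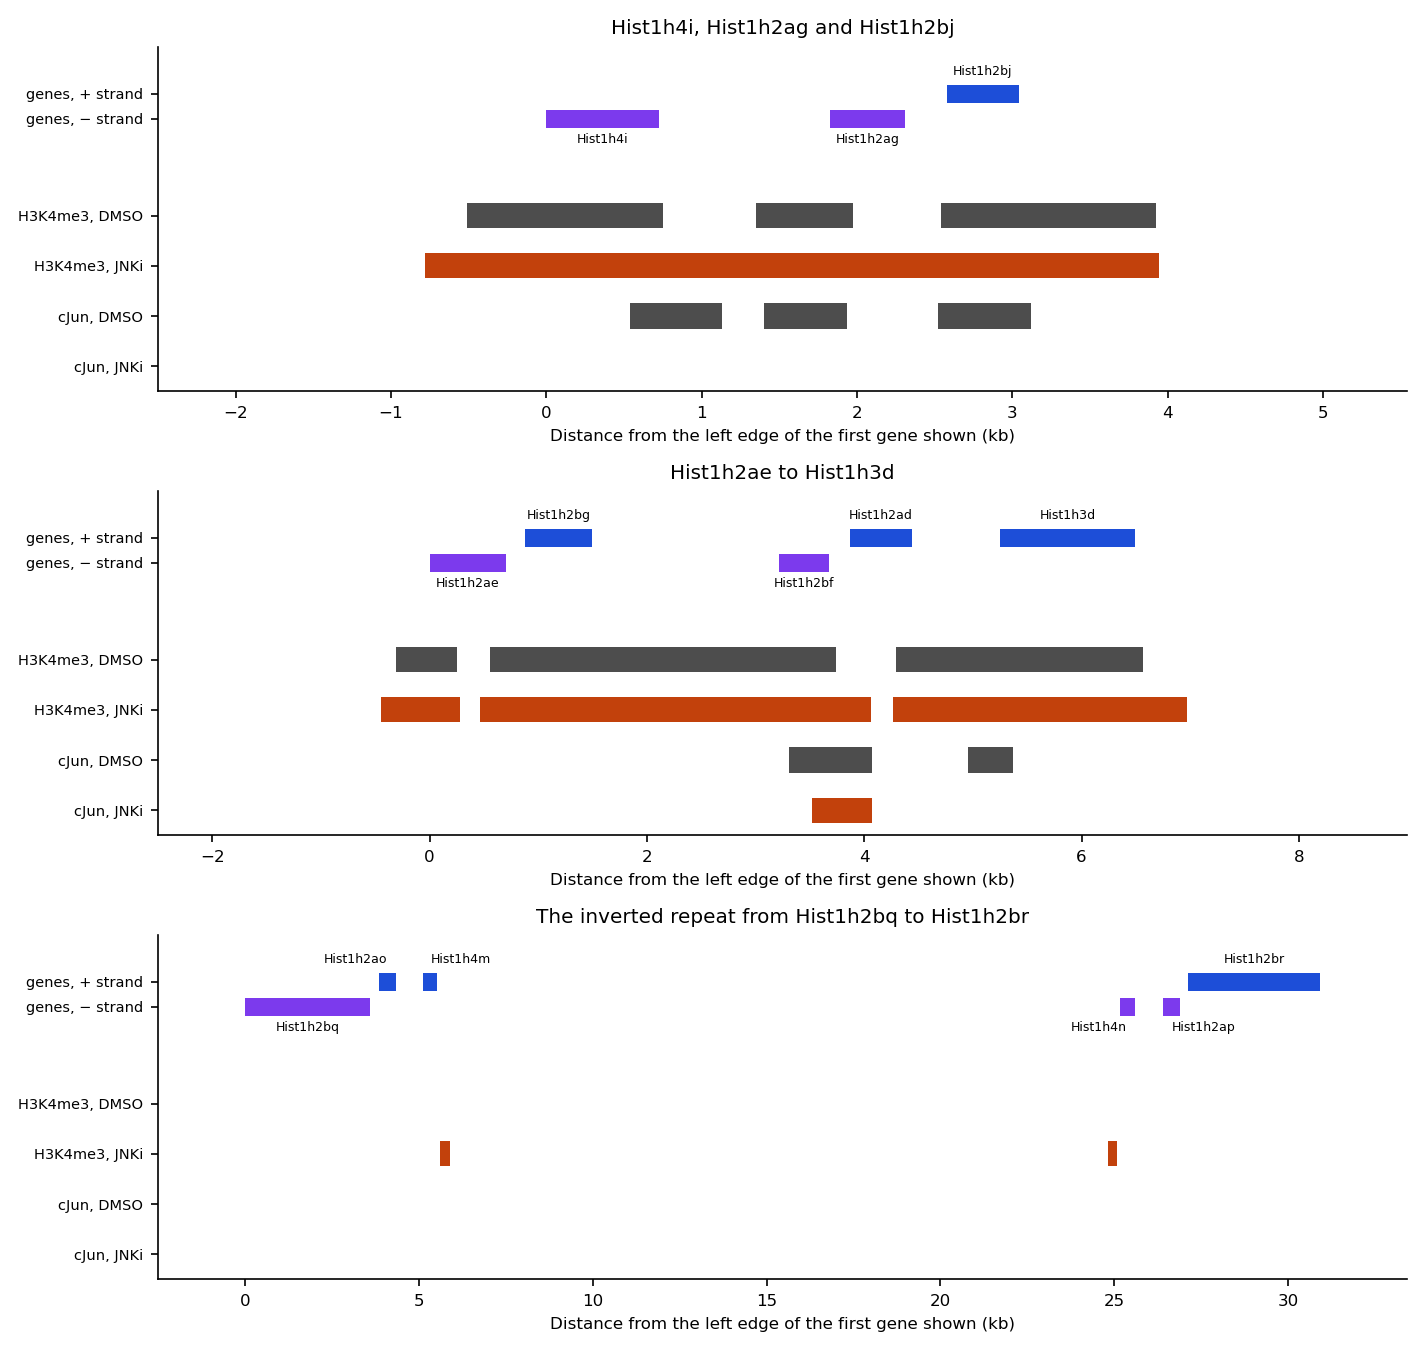
Genes (blue, + strand; purple, − strand) and peaks within 3 kb of a histone start in DMSO (grey) and JNKi (orange) at 3 stretches of the Hist1 cluster, against distance (kb) from the left edge of the first gene. In the top map 3 DMSO H3K4me3 peaks of 1265, 623 and 1386 bp face a single JNKi peak of 4725 bp and 3 DMSO cJun peaks face none; in the middle map cJun is kept between Hist1h2bf and Hist1h2ad; in the bottom map the repeat holds short JNKi peaks of 294 and 236 bp only.

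Both JNKi widths lay above both DMSO widths at 16 of 16 genes at these joined peaks, which the joining itself favours, and at 23 of the 45 other genes. Among the latter was Hist1h4b, an H4 gene, with 549 and 471 bp in DMSO and 905 and 776 bp in JNKi. At others the widths of the groups overlapped. At Hist1h1c, a linker histone gene, the replicates' widths were 3140 and 3036 bp in DMSO and 3131 and 3071 bp in JNKi, and at Hist1h4k they were 3878 and 3712 bp and 3897 and 3796 bp, so that the groups overlapped. At Hist3h2a they were 3951 and 4270 bp in DMSO and 4390 and 4267 bp in JNKi, which also overlapped. By repeated sequence near the start, both JNKi widths lay above both DMSO widths at 4 of 14 genes (28.6%, against the 20.4% of all genes) with no repeated window near the start and at 32 of 42 (76.2%) with some, outside the inverted repeats, where the DMSO and JNKi peaks overlapped. In the inverted repeats it was 2 of 4. All 16 genes at joined peaks counted as above, 15 of them among the 32 and 1 among the 4. Median merged widths were 2722 and 3176 bp in DMSO and JNKi at the 15 genes without a repeated window, Hist1h1d included, and 1707 and 3352 bp at the 42. The numbers of reads behind the lists were not analysed here. The part of joining, of repeated sequence and of read depth in the width difference was not tested.

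cJun peaks were more frequent at histone genes than at genes in general in both lists. In DMSO, 36 of 67 genes (53.7%) had a cJun peak within 3 kb, against 7.84% of all genes, and the peak covered the start at 14 (20.9%), against 3.54%. In JNKi, 13 genes (19.4%) had one within 3 kb, against 2.89%, and 6 starts (8.96%) were covered, against 1.34%. Because the genes are packed, these counts came from 24 distinct peaks in DMSO and 5 in JNKi. They rested on the lists as deposited: with an IDR (irreproducible discovery rate, an estimate of how often peaks of that quality do not recur between replicates) of at most 0.05, 3 genes (4.48%) kept a peak in DMSO, against 0.912% of all genes, and 1 (1.49%) in JNKi, against 0.629%. Among starts under a DMSO H3K4me3 peak, there was a cJun peak within 3 kb at 29 of 46 histone genes (63.0%) against 13.0% of all 12475 such genes. In JNKi, over starts under a JNKi H3K4me3 peak, the values were 13 of 51 (25.5%) and 4.84%. Ribosomal protein genes had a cJun peak in 5 of 84 cases in DMSO (5.95%), near the 7.84% of all genes. None of the 49 other genes wholly inside the clusters did, but 36 of these were Vmn1r genes without H3K4me3 and only 13 were others. Trim17, whose start lay under the cJun peak of Hist3h2a in both lists, is not among the 49. Of the distinct peaks, 23 of 24 in DMSO and 5 of 5 in JNKi overlapped an H3K4me3 peak of the same treatment. The shares were 53.4% of all 4960 and 55.5% of all 1632 cJun peaks, which are not limited to peaks near a start. Among genes with a cJun peak within 3 kb, the start lay under H3K4me3 at 29 of 36 histone genes in DMSO. Over all genes this was 1623 of 1720. In JNKi the values were 13 of 13 and 599 of 633. By cluster the DMSO counts were 32 of 54 in Hist1, 3 of 10 in Hist2, 1 of 2 in Hist3 and 0 of 1 in Hist4.

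Most cJun peaks at histone genes were absent from the JNKi list, as were most of the whole DMSO list. Of the 36 genes with a DMSO peak within 3 kb, 23 (63.9%) had none in JNKi, against 75.0% of all genes with a DMSO peak, and all 13 genes with a JNKi peak had one in DMSO, against 430 of all 633 genes (67.9%). By cluster the JNKi counts were 12 of 54 in Hist1, 0 of 10 in Hist2 and 1 of 2 in Hist3. By protein, DMSO and JNKi counts were 4 and 1 of 6 for H1, 10 and 4 of 18 for H2A, 9 and 4 of 18 for H2B, 7 and 3 of 12 for H3, and 6 and 1 of 13 for H4.

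**Figure D4:**
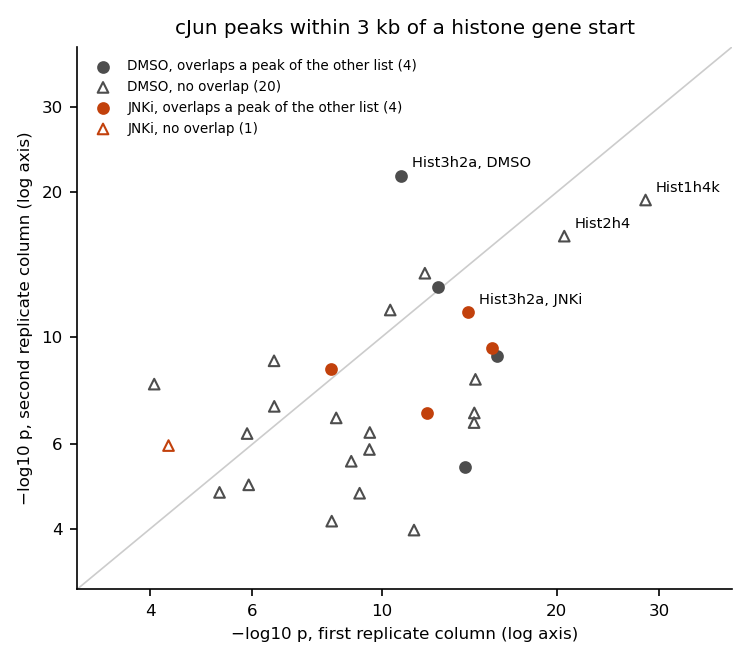
−log10 p of each cJun peak within 3 kb of a histone start in the first (x) and second (y) replicate column, both on log axes, with DMSO in grey and JNKi in orange; filled circles overlap a peak of the other treatment and open triangles do not. The highest peaks in DMSO were at Hist1h4k (28.4 and 19.3) and Hist2h4 (20.6 and 16.2), and neither overlapped a JNKi peak.

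The strongest cJun peak of the group in DMSO lay over the start of the H4 gene Hist1h4k (ENSMUSG00000064288.4), at chr13:21750330-21751037, rank 140 of 4960, with −log10 p of 28.4 and 19.3. The next lay over the H4 gene Hist2h4 (ENSMUSG00000091405.2), at chr3:96262478-96263318, rank 211, with 20.6 and 16.2. These were the only ones of the 24 with an IDR of at most 0.05, and no JNKi cJun peak was found at either. At Hist3h2a, cJun peaks lay over the start in both lists, and each also covered the start of Trim17. In DMSO the peak ranked 632 with 10.8 and 21.6, and in JNKi it ranked 228 of 1632 with 14.1 and 11.3, the only one of the 5 JNKi peaks within the same IDR limit.

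The other 3 DMSO peaks that overlapped a JNKi peak lay at neighbouring gene pairs. Between Hist1h2bf and Hist1h2ad, H2B and H2A genes whose starts are 185 bp apart, the DMSO peak ranked 414 with 12.5 and 12.7 and the JNKi peak ranked 663 with 11.97 and 6.96. Between Hist1h2ak and Hist1h2bn, 296 bp apart, the DMSO peak of 193 bp ranked 935 with 15.8 and 9.13, and the JNKi peak of 539 bp ranked 454 with 8.19 and 8.57. By Hist1h3c and Hist1h2bb, an H3 and an H2B gene, the DMSO peak of 1463 bp ranked 3001 with 13.9 and 5.38, and the JNKi peak of 548 bp over Hist1h2bb ranked 322 with 15.5 and 9.49. The fifth JNKi peak, of 288 bp by Hist1h1a, ranked 1339 with 4.30 and 5.96 and overlapped no DMSO peak. A DMSO peak by Hist1h4a, Hist1h3a and Hist1h1a lay elsewhere, at rank 2871, so these 3 genes counted in both lists through different peaks.

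The other DMSO cJun peaks were found in one list only. The one over Hist1h2ab, an H2A gene, was the only one of the 24 with no H3K4me3 peak beneath it, at chr13:23750788-23751253, rank 485, with 11.9 and 13.6. One of rank 702 lay 162 bp from Hist2h2aa1 within the second inverted repeat, with 10.3 and 11.4. A row of 3 lay over Hist1h4i, Hist1h2ag and Hist1h2bj, at ranks 2550, 4111 and 2531, where the H3K4me3 peaks were joined in JNKi. One, at rank 1271 with 14.5 and 8.17, covered the annotated start of the H2B gene Hist1h2be, which lies beside the linker histone gene Hist1h1e and far from the coding exon of Hist1h2be. The widest, of 2359 bp, lay over Hist1h1c at rank 1981. The rest ranked between 1827 and 4220 and lay near Hist1h4j, Hist1h4k, Hist1h1b, Hist1h3i with Hist1h2an and Hist1h2bp, Hist1h2ah with Hist1h2bk, Hist1h3e, Hist1h3d, Hist1h4d, Hist1h2be with Hist1h1e, and Hist1h2ac with Hist1h2bc.

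Sequences at 4 sites with high-ranked or kept cJun peaks were read from GRCm38 to show what lies there. For single genes the 250 bases before the start are given on the gene's strand, and for the divergent pairs the sequence between the starts on the + strand. Capitals mark matches on either strand to the TATA box TATAAA, the CCAAT box CCAAT, the octamer ATTTGCAT, the CRE TGACGTCA and the AP-1 sites TGACTCA and TGAGTCA, which are reverse complements of each other.
Hist1h4k, chr13:21750506-21750755, − strand: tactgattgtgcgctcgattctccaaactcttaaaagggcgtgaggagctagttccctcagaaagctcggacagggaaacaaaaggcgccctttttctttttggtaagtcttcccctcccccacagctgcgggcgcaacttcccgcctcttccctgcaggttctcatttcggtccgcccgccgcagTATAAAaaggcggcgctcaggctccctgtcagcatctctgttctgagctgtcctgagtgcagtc
Hist3h2a, chr11:58954435-58954684, + strand: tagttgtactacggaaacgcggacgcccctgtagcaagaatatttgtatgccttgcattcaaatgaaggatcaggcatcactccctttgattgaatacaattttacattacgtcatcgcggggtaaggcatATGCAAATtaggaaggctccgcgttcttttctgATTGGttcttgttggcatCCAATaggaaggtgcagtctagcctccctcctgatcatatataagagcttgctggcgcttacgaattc
Hist1h2bf/Hist1h2ad, chr13:23574197-23574380, + strand: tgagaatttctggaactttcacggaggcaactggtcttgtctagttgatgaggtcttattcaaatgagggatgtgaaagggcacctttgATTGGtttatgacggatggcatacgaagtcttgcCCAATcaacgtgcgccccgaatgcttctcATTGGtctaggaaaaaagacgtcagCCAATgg
Hist1h2ak/Hist1h2bn, chr13:21753828-21754122, + strand: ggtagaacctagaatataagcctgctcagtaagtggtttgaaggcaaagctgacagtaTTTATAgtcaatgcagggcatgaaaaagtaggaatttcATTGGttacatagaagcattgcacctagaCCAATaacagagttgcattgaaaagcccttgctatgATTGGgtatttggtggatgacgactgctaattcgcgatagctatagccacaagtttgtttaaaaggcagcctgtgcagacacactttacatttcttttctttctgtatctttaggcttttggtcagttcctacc
The divergent sequences held 4 and 3 CCAAT matches, that of Hist3h2a held 2 beside an octamer and that of Hist1h4k held none. TATAAA was matched once each at Hist1h4k and between Hist1h2ak and Hist1h2bn. None of the 4 sequences held an AP-1 or CRE match.

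Over all 67 genes, the 250 bases before the gene's 5′ end held CCAAT in 54 (80.6%), against 35.99% of all 21938 genes, TATAAA in 34 (50.7%), against 11.5%, and the octamer in 15 (22.4%), against 1.45%. CCAAT was present in 18 of 18 H2A and 18 of 18 H2B genes, and in 5 of 6 H1, 9 of 12 H3 and 4 of 13 H4 genes. The octamer was found at 7 H2A and 8 H2B genes and at no H1, H3 or H4 gene. The 2 genes of a divergent pair share most of this window, so their matches are often the same site. CRE was found in 4 genes (5.97%), against 1.96%, namely Hist1h2ag, Hist1h2bj, Hist1h4a and Hist1h4h. The AP-1 letters were found in 0 of 67 genes, against 3.998% of all genes. Within 100 bases of the summit, 1 of the 24 DMSO cJun peaks at histone genes (4.17%) held an AP-1 match, against 496 of the 4960 peaks of the DMSO list, and 0 of 5 JNKi peaks, against 12.1%. Over whole peaks it was 2 of 24 (8.33%), against 32.6%, namely those near Hist1h3e and over Hist2h4, and 0 of 5, against 35.0%. The shares over whole lists are not limited to cJun peaks near starts, and cJun peaks near the starts of other genes were not counted apart. All of these are matches of letters and say nothing of binding.

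**Figure D5:**
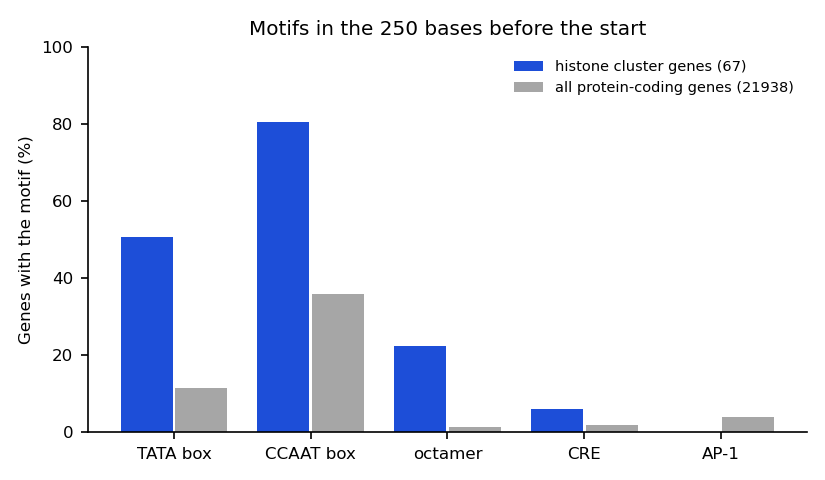
Share of genes (%) with each motif on either strand in the 250 bases before the start, for the 67 histone genes (blue) and all 21938 protein-coding genes (grey). CCAAT was found at 80.6% and 35.99%, and AP-1 at 0 of 67 histone genes and 3.998% of all genes.

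Histone genes outside the clusters and the factors that make histone messages were read in the same way. Of 14 histone variant and linker genes outside the clusters, listed as replication-independent, 11 had their start under H3K4me3 in both lists, with a median percentile of 79.5 in DMSO and 90.2 in JNKi. The 3 without a peak were the germline linker histones H1foo, H1fnt and Hils1. cJun lay within 3 kb of H2afz, H2afv and H3f3b in DMSO, at ranks 4073, 870 and 2555, and of none of the 14 in JNKi. All 18 factor genes, among them Npat and Slbp, had their start under H3K4me3 in both lists, with a median percentile of 83.7 in DMSO and 83.96 in JNKi. cJun lay within 3 kb of Slbp, the gene of the stem-loop binding protein, at rank 2049, of Zfp473, a zinc finger protein of histone pre-mRNA processing, at rank 1382, and of Sympk, a scaffold of the cleavage complex, at rank 3891 in DMSO, and of Sympk alone in JNKi, at rank 475. The counts of 3 of 14 and 3 of 18 in DMSO stand against the 7.84% of all genes given above and rest on 3 genes each.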

How the data were processed

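CUT&RUN libraries of 12 Min6 samples in 6 groups (cJun, H3K4me3 and IgG, in DMSO or JNKi, 2 biological replicates each) had been sequenced. Nothing further says how the replicate cultures were separated. Per the labels and the study's methods, the authors trimmed reads with Trimmomatic, aligned them with Bowtie2 2.4.2 to GRCm38, used SAMtools 1.16 to drop reads that were unmapped, of low mapping quality or secondary, called peaks in each replicate with MACS2 2.2.7.1 against IgG, and merged the replicates with IDR. deepTools 3.5.1 and bedtools 2.30 are also named. The 4 deposited lists hold −log10 p-values of the merged peak and of both replicate columns, −log10 irreproducible discovery rates and a scaled score, which was not used to rank. The replicate columns carry no number. The merged value was the lower of the replicates' values and the merged interval the union of their intervals. The lists were deposited without a limit on IDR, and they were used whole. No column of a further sample was found.

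Starts of all 21938 protein-coding genes of GENCODE vM21 were compared with the peaks in Python 3.11.15 (numpy 2.4.6, pandas 2.3.3). A gene counted when a peak lay within 3 kb of any annotated start, and peaks could serve several genes. Repeated sequence was measured as the share of 150-base windows within 1 kb of the start found more than once in the genome. Motifs were matched as exact letters on both strands of the reference. The calculations were tested on simulated data. The members and lists were chosen with earlier results of these data known. Genes named were those with no H3K4me3 peak in a list, those with a cJun peak, the 3 widest, highest-ranked and lowest-ranked peaks, the peaks over most genes, Hist3, Hist4 and testis genes, and listed genes without H3K4me3 or with cJun. The sites of joined peaks, Hist1h4b and Hist1h1c as examples with and without a width difference, the starts covered in JNKi only and the genes sharing a stem-loop or motif were named after their values were seen. Presence and width in the merged lists were not tested between treatments. After seeing the data, log2 widths of the replicates' own peaks were compared with limma 3.58.1 in R 4.3.3 (2 columns against 2, no covariate) over overlapping pairs of peaks. Widths come from peaks found in both replicates. Alternatives changed the distance, the start, the IDR limit, the ranking, the counting of shared peaks and the promoter length.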

Additional observations from a re-analysis of the deposited data

How the results depend on the processing

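Over 19 results and 82 alternatives, 59 values stayed within 1.5 times the count or within the interval of the value given in the report, and 23 moved further. Of the alternatives, 22 were, like the limma test itself, chosen after seeing the data. Counting only peaks that cover the start gave 14 genes with cJun in DMSO and 6 in JNKi, and 10 genes whose cJun state differed between lists. Peaks with an IDR of at most 0.05 gave 3 and 1 genes with cJun (4.48% and 1.49%, against 0.912% and 0.629% of all genes), and of at most 0.01 gave 2 and 0 (2.99% and 0%, against 0.506% and 0.292%). Assigning each peak to its nearest histone gene gave 47 genes with H3K4me3 in DMSO and 43 in JNKi, which turned the order of the lists, as did an IDR of at most 0.01 with 51 and 49, and, added later, 23 and 5 genes with cJun. Within 1 kb, 3 genes differed in H3K4me3 state. Shared H3K4me3 peaks fell to 21 genes in DMSO and 32 in JNKi when both starts had to be covered, from 51 and 57 within 3 kb. Ranking by width gave median percentiles of 59.6 and 79.7. Counting each distinct peak once gave median widths of 1393.5 bp in DMSO and 2409 bp in JNKi. The lower JNKi over the higher DMSO replicate width, added later, gave a median ratio of 1.07. With 100 bases before the start, the octamer was found at 6 genes (8.96%, against 0.656% of all) and CRE at 2 (2.99%, against 1.47%). The cause of these shifts was not tested beyond the construction of each alternative. Measuring from the start codon and leaving out the inverted repeats, also added later, kept all counts within 1.5 times. No paired analysis was possible because no replicate column has a number to pair by. Leaving out each replicate column in turn gave median width ratios of 1.15 to 1.18 and 0 to 2 pairs of peaks wider by limma, against 9 with all columns (0 to 6 of all 11457 pairs, against 76), where the lone column is assumed to vary like the other group. Scaling the columns to equal medians and spread gave 9 wider and 0 narrower, against 99 and 66 of all pairs. Presence in a merged list needs both replicates, so it has no value without one. Depth per library was not analysed here, and a peak absent from a list may lie below its threshold.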

Other observations

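H3K4me3 peaks over histone starts reached a median of 904 bp upstream and 1281 bp downstream in DMSO and 1332 and 1507 bp in JNKi, against 877 and 1581 bp and 915 and 1608 bp over all genes with a covered start. The summit lay downstream of the start at 34 of 46 histone genes (73.9%) in DMSO and 29 of 51 (56.9%) in JNKi, against 81.2% and 81.4% of all genes.

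Where TATAAA was found before a histone gene, its copy nearest the annotated start lay 10 to 247 bases away with a median of 62. The octamer genes were Hist1h2aa, Hist1h2ab, Hist1h2ac, Hist1h2ae, Hist1h2ah, Hist1h2ba, Hist1h2bb, Hist1h2bc, Hist1h2bg, Hist1h2bk, Hist1h2bm, Hist2h2ac, Hist2h2bb, Hist2h2be and Hist3h2a.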
